A study of Rattus norvegicus with 12 samples.

Results

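The genes described here are 10 angiogenic and hypoxia genes: the vascular endothelial growth factors Vegfa, Vegfb, and Vegfc, placental growth factor (Pgf), the angiopoietins Angpt1 and Angpt2, the VEGF receptors Flt1 and Kdr, and the hypoxia factors Hif1a and Epas1. They were chosen by symbol, with earlier results of these data known. They are 10 of the 17301 gene names of the tables, or 19 of 18752 RefSeq transcripts. Expression was measured by RNA sequencing in cultured adult rat ventricular myocytes (ARVMs) from male Sprague Dawley rats. In 6 samples the cells carried Ad-GFP, an adenovirus encoding enhanced green fluorescent protein, and in 6 samples they carried Ad-h-NR4A2, which encodes full-length human NR4A2 driven by the cytomegalovirus promoter. Every sample thus received an adenovirus, at a multiplicity of infection of 50, and RNA was taken 48 h later; the labels give no age of the animals. The comparison asks which of these genes differ when NR4A2, an orphan nuclear receptor induced by β-adrenergic stimulation, is overexpressed.

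VEGF ligands act on endothelial cells through receptor tyrosine kinases, of which Kdr (VEGFR2) carries most of the growth signal and Flt1 (VEGFR1) largely acts as a trap for ligand. Angpt1 activates the endothelial receptor Tek (Tie2) and steadies vessels, whereas Angpt2, stored in and released from endothelial cells, can oppose it. HIF-1α and HIF-2α, the products of Hif1a and Epas1, are degraded when oxygen is plentiful and otherwise pair with Arnt to activate genes such as Vegfa, so that their activity is set mainly at the protein level, which RNA sequencing does not measure.

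Values are FPKM as calculated by the authors, that is, fragments scaled to transcript length and to the sample's mapped fragments. The samples held 18600000 to 27800000 fragments, as recovered from the step size of low FPKM, and the medians of the groups were 23650000 (Ad-GFP) and 23750000 (Ad-h-NR4A2). Nr4a2 averaged 0.884 ± 0.309 FPKM (SD, n = 6) in Ad-GFP samples and 524 ± 70.3 in Ad-h-NR4A2 samples, as the labels say. The 11 cardiomyocyte markers in the tables, among them Tnnt2 and Myh6, summed to 35388 to 43063 FPKM in Ad-GFP samples and 31303 to 37010 in Ad-h-NR4A2 samples. Robo4 and Cd34, each listed with 2 transcripts, were at 0 in all 12 samples. Whether these 0 values mean absence was not tested. The 17 endothelial markers in the tables, these included, summed to 13.4 to 45.4 FPKM in Ad-GFP samples and 16.7 to 50.8 in Ad-h-NR4A2 samples. By these sums, endothelial transcripts were present at a low and variable level, which bears on the vascular receptors below. In bulk RNA, fewer cells of a type and less RNA per cell cannot be told apart.

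In Ad-GFP samples the 10 genes fell into 5 levels. Vegfa (97.1 ± 15.6 FPKM, SD, n = 6, for its most abundant transcript) and Vegfb (95.7 ± 5.99) stood highest and overlapped each other. Epas1 (24.5 ± 2.38) and Hif1a (23.0 ± 0.310) followed, again with overlapping ranges, and then Kdr (4.76 ± 2.06) and Angpt1 (4.17 ± 1.45), which overlapped too. Angpt2 (1.11 ± 0.322) and Flt1 (0.804 ± 0.447) overlapped each other, as did Pgf (0.269 ± 0.0707) and Vegfc (0.107 ± 0.0662). Between these 5 pairs of neighbors the ranges of single samples did not overlap. The order can be read from the plot of FPKM by gene.

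**Figure D1:**
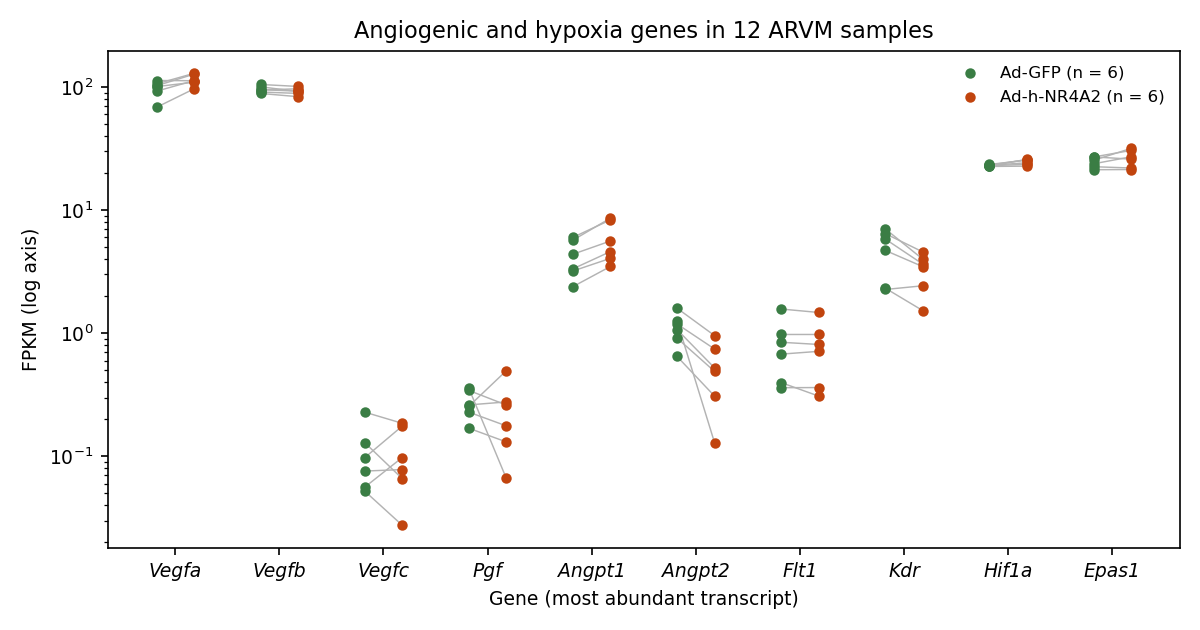
FPKM (log axis) of the most abundant transcript of each of the 10 genes in the 6 Ad-GFP samples (green) and the 6 Ad-h-NR4A2 samples (red), with grey lines joining samples of the same number. Angpt2 is lower and Angpt1 and Hif1a are higher in the Ad-h-NR4A2 sample of all 6 pairs, and the groups overlap in each of the 10 genes.

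Of the 10 genes, 1 fell and none rose. Genes were called at a Benjamini-Hochberg adjusted p below 0.05 in limma, fitted to log2(FPKM + 0.1) of 10950 genes, together with a ratio of group means of at least 1.5 in either direction. This was met by 15.2% of all genes tested (7.94% higher and 7.24% lower), and among the 10 by Angpt2 alone. On the adjusted p alone, 40.9% of all genes passed and again 1 of the 10, and 3 of the 10 had an unadjusted p below 0.05. The median log2 fold change of the 10 genes was -0.03, compared with -0.02 for all genes tested. In none of the 10 did the 6 Ad-h-NR4A2 values lie wholly apart from the 6 Ad-GFP values, which was the case in 21.5% of all genes.

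Samples of the same number (24 to 29) in both groups deviated together from their group means, so that the number was also fitted as a replicate block. In that fit 5 of the 10 genes had an adjusted p below 0.05, namely Angpt2, Angpt1, Vegfa, Kdr, and Hif1a, compared with 59.4% of all genes tested. Apart from Angpt2, these differences stayed below a ratio of 1.5. The interval of each gene with and without the block is plotted as the estimated change.

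**Figure D2:**
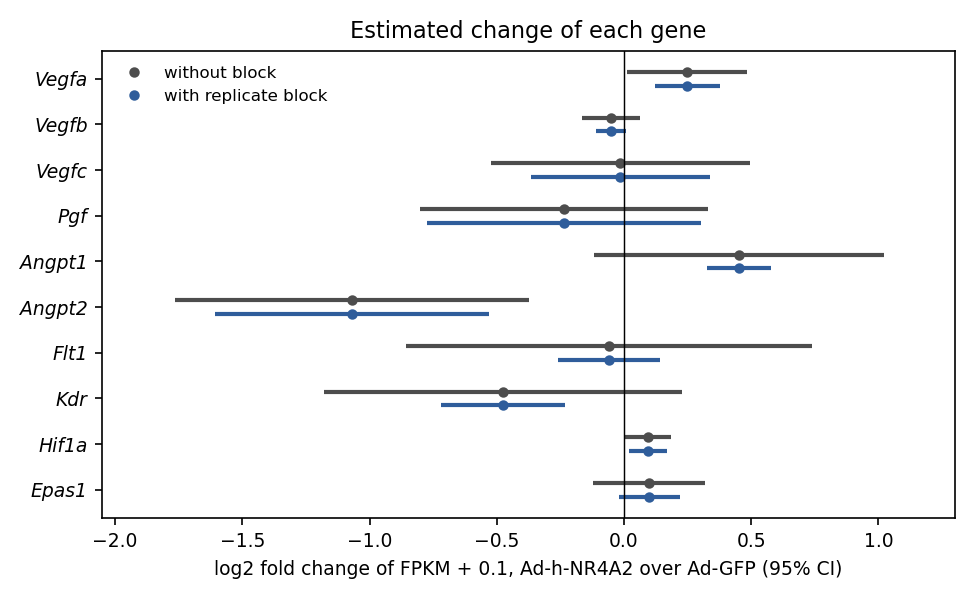
Log2 fold change of FPKM + 0.1 (Ad-h-NR4A2 over Ad-GFP) with 95% confidence intervals from limma, without a block (grey) and with the replicate block (blue), for the 10 genes. The intervals of Angpt2 (below 0) and of Vegfa and Hif1a (above 0) exclude 0 in both fits, and those of Kdr (below 0) and Angpt1 (above 0) exclude 0 only with the block.

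Vegfa, the main angiogenic factor secreted by cardiomyocytes, did not pass the unpaired test. Its most abundant transcript, NM_031836, had a lowest, median, and highest value of 68.3, 101, and 113 FPKM in Ad-GFP samples and of 96.5, 112, and 129 FPKM in Ad-h-NR4A2 samples. The groups overlapped, and the Ad-h-NR4A2 sample was higher in 5 of 6 pairs. On the log2 scale the difference was 0.25 (SE 0.11, 95% CI 0.01 to 0.48, limma, Benjamini-Hochberg adjusted p = 0.0849). Fitted with the block of sample numbers, the SE was 0.06 and the adjusted p 0.00422. Sample 28 had the lowest value of each group. Leaving out Ad-GFP sample 28 lowered the unpaired log2 fold change to 0.15 (limma adjusted p = 0.132), and leaving out Ad-h-NR4A2 sample 28 raised it to 0.30 (limma adjusted p = 0.0476). With the transcripts summed it was 0.13 (limma adjusted p = 0.111).

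The tables list 9 transcripts of Vegfa, all given the locus on chromosome 9 from 16232415 to 16247657 of Rn5. Alternative splicing of Vegfa yields proteins that bind the matrix to different degrees. Of the summed Vegfa FPKM in Ad-GFP samples, NM_031836 (3545 nucleotides) made up 40.7% ± 4.2 (SD, n = 6), NM_001110333 (3473 nucleotides) 24.01% ± 3.09, NM_001110335 (2600 nucleotides) 17.4% ± 1.59, and NM_001110336 (2528 nucleotides) 15.8% ± 2.11. The other 5 transcripts together made up 2.104% ± 0.289. How Cufflinks divides fragments among transcripts that share most of their sequence is uncertain, and the tables give no usable error for it.

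The share of NM_001110336 was lower in Ad-h-NR4A2 samples, at 12.2% ± 1.05 (SD, n = 6), in 6 of 6 pairs. The difference was -3.56 percentage points (two-sided exact permutation test, p = 0.00649, and 0.0390 adjusted over 6 shares chosen after the data were seen). Within pairs, the exact sign-flip permutation test gave p = 0.03125, the smallest that 6 pairs allow, which did not pass when adjusted over the 6 shares (0.1875). As the only share at that smallest p, it could not have passed. Its own FPKM went from 37.3 ± 4.46 to 31.9 ± 3.88 and did not pass when all 11667 transcripts were tested (limma, Benjamini-Hochberg adjusted p = 0.0837), where 14.7% of transcripts were called. Of the other shares, that of NM_031836 was 43.96% ± 1.96 in Ad-h-NR4A2 samples (exact permutation p = 0.121, adjusted 0.242). Summed over its transcripts, Vegfa was 237 ± 18.6 FPKM in Ad-GFP samples and 260 ± 21.0 in Ad-h-NR4A2 samples, higher in 6 of 6 pairs, with Ad-GFP sample 28 (200.3 FPKM) below the others. The unpaired exact permutation test of this sum gave p = 0.0758 (0.121 adjusted over 8 levels and ratios chosen after the data were seen), and the exact sign-flip permutation test within pairs gave 0.03125 (adjusted 0.0417), the former being the smallest that 6 pairs allow. Several of the 8 tied at that smallest p, and the number of ties set the adjusted value.

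**Figure D3:**
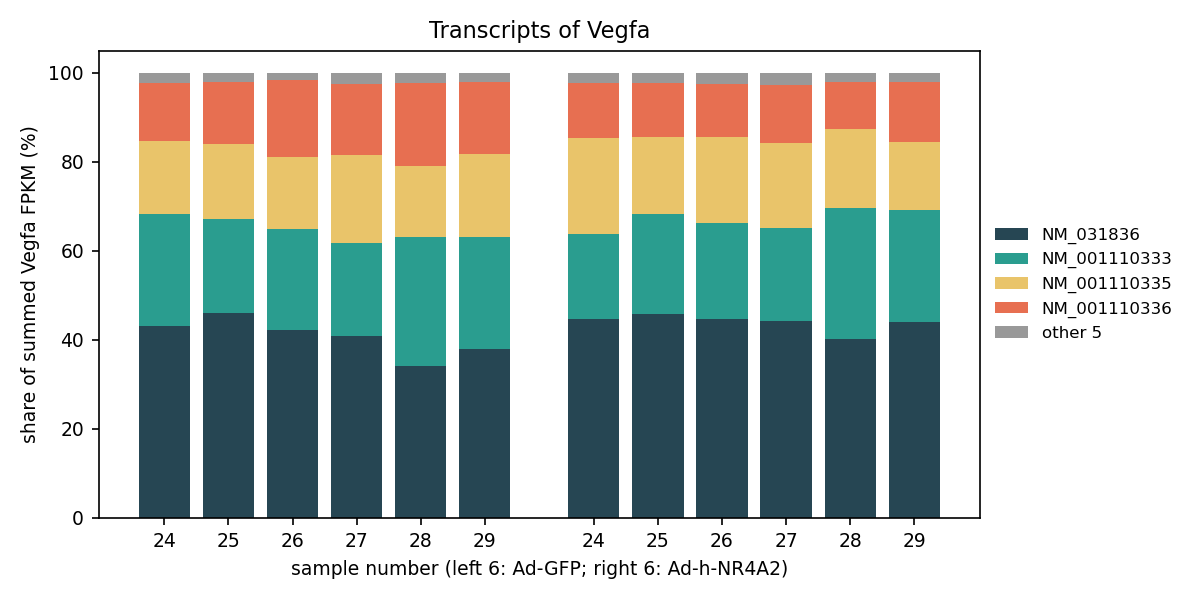
Share of summed Vegfa FPKM (%) taken by each transcript in the 6 Ad-GFP samples (left) and the 6 Ad-h-NR4A2 samples (right), stacked, by sample number. The NM_001110336 segment is between 13.0% and 18.7% in Ad-GFP samples and between 10.6% and 13.6% in Ad-h-NR4A2 samples.

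Promoters, 250 bases before to 50 after annotated starts, were taken from RefSeq of the later build GRCr8 for 8 of the 10 genes (9 promoters); Angpt1 and Angpt2 were not in that table. They were searched on both strands for AAAGGTCA, the monomer site of NR4A receptors, and for ACGTG, the core that HIF binds. AAAGGTCA was found in 1 of the 9, that of the downstream start of Vegfa, and in 1.43% of all 33469 promoters. The site is shown because the transduced factor is an NR4A receptor. It lies 159 bases before the start and reads TGACCTTT in the direction of the gene (capitals), so that AAAGGTCA is on the other strand. The stretch printed, with 10 bases on either side of the site, is the plus strand of GRCr8 at chr9:22460109-22460136.
Vegfa: tctgctttcaTGACCTTTgctccctggg
This is a match of letters within 300 bases and not an observed binding site.

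Vegfb, a ligand of Flt1 linked to coronary vessels and fatty acid handling, differed little between groups. In Ad-GFP samples its lowest, median, and highest values were 88.55, 94.8, and 105 FPKM, and in Ad-h-NR4A2 samples 83.4, 92.2, and 101 FPKM. The values overlapped over nearly their whole range, although 5 of 6 pairs had the lower value with Ad-h-NR4A2. Its log2 fold change was -0.05 (SE 0.05, 95% CI -0.17 to 0.06, limma, Benjamini-Hochberg adjusted p = 0.467). Vegfb rested on 2890 to 4673 fragments per sample, the most of the 8 genes with a single listed transcript, and a change of 1.5-fold lies outside this interval.

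Vegfc, a lymphatic growth factor, was near the limit of detection, at 2 to 9 fragments with Ad-GFP and 1 to 6 with Ad-h-NR4A2. Its median was 0.0867 FPKM in Ad-GFP samples (range 0.0521 to 0.228) and 0.0879 in Ad-h-NR4A2 samples (range 0.0276 to 0.185). A difference was not detectable at this depth (log2 fold change -0.01, 95% CI -0.52 to 0.49, limma, Benjamini-Hochberg adjusted p = 0.969). Pgf, which binds Flt1, rested on 6 to 11 and 2 to 16 fragments. Its median was 0.258 FPKM in Ad-GFP samples (range 0.169 to 0.356) and 0.219 in Ad-h-NR4A2 samples (range 0.0661 to 0.496), so that the Ad-h-NR4A2 values surrounded those of Ad-GFP. The log2 fold change of Pgf was -0.24 (95% CI -0.80 to 0.33, adjusted p = 0.509).

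Of the angiopoietins, Angpt2 fell and Angpt1 did not pass the unpaired test. Angpt2 (chromosome 16, 75572301 to 75621968, Rn5) had a lowest, median, and highest value of 0.647, 1.13, and 1.60 FPKM in Ad-GFP samples and of 0.129, 0.506, and 0.956 FPKM in Ad-h-NR4A2 samples. All 6 pairs had the lower value with Ad-h-NR4A2, most of all in pair 28, from 1.25 to 0.129 FPKM. The mean fell from 1.11 ± 0.322 to 0.525 ± 0.296 FPKM (SD, n = 6), a 2.12-fold decrease. limma put the log2 fold change at -1.07 (SE 0.32, 95% CI -1.76 to -0.37, limma, Benjamini-Hochberg adjusted p = 0.0172), and the two-sided exact permutation test gave p = 0.0130. Behind these values were only 30 to 72 fragments with Ad-GFP and 7 to 55 with Ad-h-NR4A2. Angpt2 averaged 0.818 FPKM over the 12 samples, and among genes with a mean of at least 1 it was therefore not tested.

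Angpt1 (chromosome 7, 81368928 to 81618369, Rn5) had a lowest, median, and highest value of 2.39, 3.86, and 6.01 FPKM in Ad-GFP samples and of 3.49, 5.11, and 8.61 FPKM in Ad-h-NR4A2 samples. The ranges overlapped widely, but each Ad-h-NR4A2 sample exceeded the Ad-GFP sample of its number. The estimated log2 fold change was 0.45 (SE 0.26, 95% CI -0.12 to 1.02, limma, Benjamini-Hochberg adjusted p = 0.193). Fitted with the block of sample numbers, the SE was 0.06, the 95% CI 0.33 to 0.58, and the adjusted p 0.00011, at a ratio of means of 1.39 that is under the limit of 1.5.

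The ratio of Angpt1 to Angpt2, a quantity chosen after the data were seen, had a median of 3.67 with Ad-GFP (range 2.56 to 5.62) and of 11.4 with Ad-h-NR4A2 (range 5.87 to 31.5). The groups did not overlap. The difference of the log2 ratio was 1.74 (exact permutation p = 0.00216, two-sided, which is the lowest possible with 6 against 6 samples, and 0.00577 adjusted over the 8 levels and ratios compared this way). As Angpt1 was higher and Angpt2 lower in all 6 pairs, a higher ratio in each pair was given beforehand. The ratio is therefore a description and no separate support for either change. The highest ratio, 31.5 in Ad-h-NR4A2 sample 28, rests on the lowest Angpt2 value; without that sample the difference was 1.48, the smallest when any sample was left out.

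Kdr (chromosome 14, 34557361 to 34618111, Rn5), the main VEGF receptor of endothelial cells, had a lowest, median, and highest value of 2.26, 5.26, and 7.03 FPKM in Ad-GFP samples and of 1.53, 3.56, and 4.57 FPKM in Ad-h-NR4A2 samples. The groups overlapped, and 5 of 6 pairs had the lower value with Ad-h-NR4A2, the exception being pair 24, at 2.26 and 2.43 FPKM. As a log2 fold change this was -0.48 (SE 0.33, 95% CI -1.18 to 0.23, limma, Benjamini-Hochberg adjusted p = 0.269). Without Ad-h-NR4A2 sample 28, the lowest of all, it was -0.28 (limma adjusted p = 0.495). Fitted with the block of sample numbers, the SE was 0.11, the 95% CI -0.72 to -0.23, and the adjusted p 0.00409, at a 1.46-fold lower mean.

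Flt1 (chromosome 12, 11155072 to 11325040, Rn5), listed with 2 transcripts, showed the widest interval of the 10 genes in the unpaired fit. The more abundant, NM_019306, had a median of 0.760 FPKM in Ad-GFP samples (range 0.361 to 1.57) and of 0.761 in Ad-h-NR4A2 samples (range 0.308 to 1.47). The difference amounted to a log2 fold change of -0.06 (95% CI -0.86 to 0.74, limma, Benjamini-Hochberg adjusted p = 0.917), and with the replicate block the 95% CI was -0.26 to 0.14. The other transcript, NM_001309381, had 0.617 ± 0.404 and 0.623 ± 0.367 FPKM. Samples of the same number had like values of Flt1, with samples 24 and 28 lowest and sample 25 highest in each group.

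The sum of the endothelial markers varied in the same way, being lowest in samples 28 and 24 and highest in sample 25 of each group. All 6 pairs had the higher sum with Ad-h-NR4A2, with a median of 28.3 FPKM in Ad-GFP samples and 35.5 in Ad-h-NR4A2 samples (unpaired two-sided exact permutation test, p = 0.539). Within pairs, the exact sign-flip permutation test gave p = 0.03125, the smallest that 6 pairs allow, and 0.0417 adjusted over 8 levels and ratios. Several of these 8 tied at the smallest p, and the number of ties set the adjusted value. Of the 15 endothelial markers tested, 1 rose, Egfl7, from 3.63 ± 1.24 to 6.14 ± 1.29 FPKM, and none fell (6.67% called, beside 15.2% of all genes). The higher sum came mostly from Egfl7 and from Eng, which went from 6.62 ± 3.08 to 8.32 ± 3.52 FPKM and was not called. The median log2 fold change of the 15 markers was 0.05. Pecam1, Cdh5, and Tie1, which define endothelial cells, were not called. Relative to this sum, chosen as a denominator after the data were seen, Kdr was 0.135 to 0.241 in Ad-GFP samples and 0.0900 to 0.129 in Ad-h-NR4A2 samples, without overlap. The log2 difference was -0.72 (two-sided exact permutation p = 0.00216, adjusted 0.00577 over 8 levels and ratios), and -0.60 (p = 0.00866) with Egfl7 left out of the markers. In 5 of 6 pairs Kdr was lower and the sum higher, so that a lower ratio in those pairs was given beforehand.

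Angpt2 relative to the endothelial markers was 0.0282 to 0.0932 in Ad-GFP samples and 0.00770 to 0.0190 in Ad-h-NR4A2 samples, again without overlap (log2 difference -1.52, two-sided exact permutation p = 0.00216, adjusted 0.00577). As Angpt2 was lower and the marker sum higher in all 6 pairs, a lower ratio in each pair was given beforehand. This ratio is therefore a description and no separate support for a fall of Angpt2. Ad-GFP sample 28 lay far above the other 5 in this ratio. For Flt1 the log2 difference was -0.31 (exact permutation p = 0.0498, adjusted 0.0996), with a lower value in 6 of 6 pairs (exact sign-flip permutation p = 0.03125, adjusted 0.0417). Without Egfl7 it was -0.19 (unpaired exact permutation p = 0.156). Angpt2 thus fell, and Kdr was lower in 5 of 6 pairs, beside an endothelial marker sum that was higher in all 6, mostly through Egfl7 and Eng. Angpt1 relative to the same sum averaged 0.164 ± 0.0657 and 0.187 ± 0.0548 (exact permutation p = 0.465). Of 8 markers of smooth muscle cells and pericytes tested, 2 fell, Cspg4 and Myh11, and none rose; of 9 fibroblast markers tested, 1 fell, Col3a1. Of 5 macrophage and blood markers tested, 2 rose, Csf1r and Cd14, and the 10 markers summed to 7.49 to 18.2 FPKM with Ad-GFP and 39.3 to 51.2 with Ad-h-NR4A2, mostly Csf1r (10.1 to 40.2 FPKM in the means), while Cd68 was at 0.463 and 0.482 FPKM. Of 11 cardiomyocyte markers, 4 fell (Myh7, Ryr2, Pln, and Nppb). The shares called were 25% (smooth muscle cells and pericytes), 11.1% (fibroblasts), 40% (macrophages and blood cells), and 36.4% (cardiomyocytes), beside 15.2% of all genes. With so few genes per list, these shares are a description only. The part of these other cell types in the angiopoietin values was not tested.

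**Figure D4:**
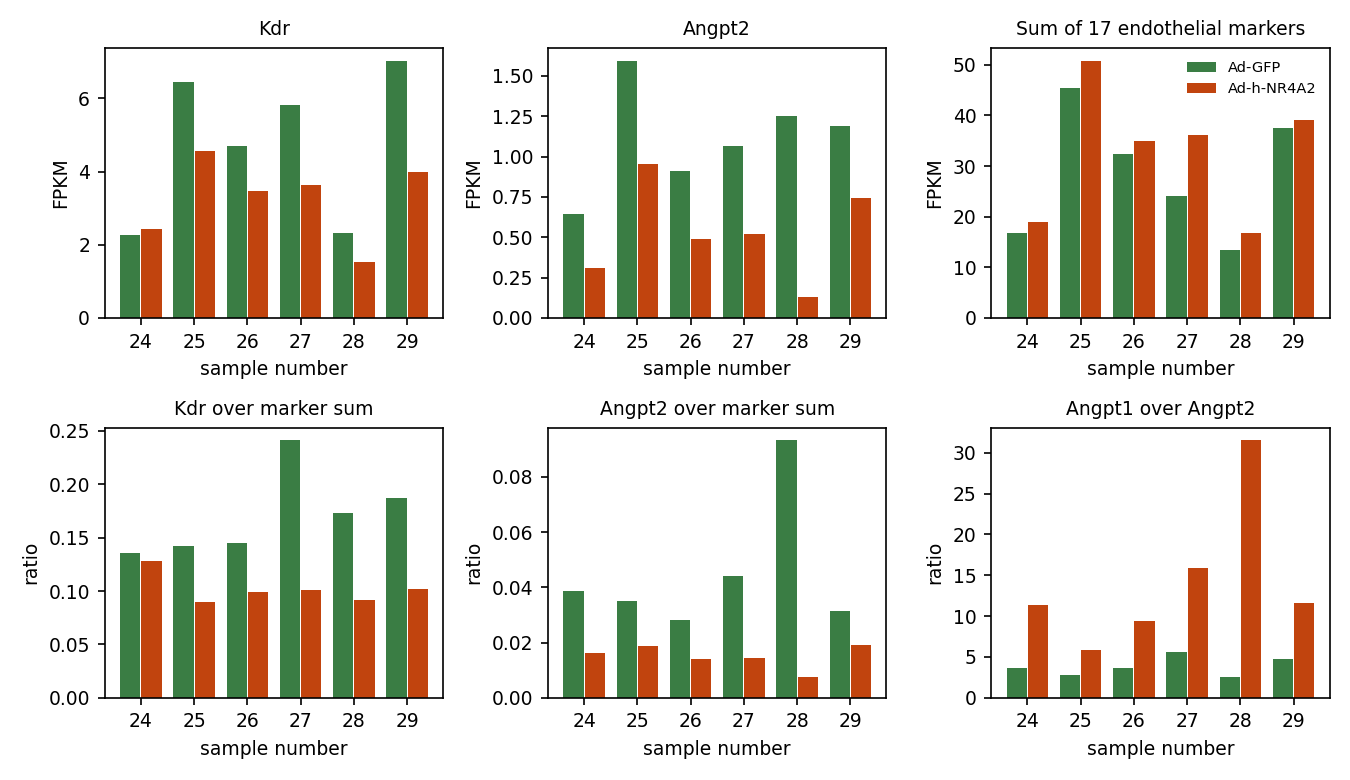
Bars give, by sample number, FPKM of Kdr, FPKM of Angpt2, and the summed FPKM of the 17 endothelial markers (top), and Kdr and Angpt2 over that sum and Angpt1 over Angpt2 (bottom), for Ad-GFP (green) and Ad-h-NR4A2 (red). The marker sum is higher in the Ad-h-NR4A2 sample of all 6 pairs while Angpt2 is lower in all 6, and the 3 ratios do not overlap between groups.

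Hif1a (chromosome 6, 106242730 to 106287704, Rn5), which encodes the oxygen-regulated subunit of HIF-1, varied least of the 10 genes. In Ad-GFP samples its lowest, median, and highest values were 22.6, 23.0, and 23.5 FPKM, and in Ad-h-NR4A2 samples 22.8, 24.8, and 25.8 FPKM. In 6 of 6 pairs the Ad-h-NR4A2 sample was the higher. The fitted log2 fold change was 0.09 (SE 0.04, 95% CI 0.002 to 0.18, limma, Benjamini-Hochberg adjusted p = 0.0939). Blocking on the sample number gave an adjusted p of 0.0362, and without Ad-h-NR4A2 sample 25 the unpaired value was 0.0432. The ratio of means was 1.07.

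ACGTG occurred in 1 of the 9 promoters of the 10 genes, that of Hif1a, and in 19.3% of all promoters. It is shown because Hif1a encodes the factor that binds this core. Both matches are on the plus strand of GRCr8. The first lies 228 bases before the start, where it is part of CACGTG and so matches on both strands, and the second 164 bases before the start. The stretches printed are chr6:98359660-98359684 and chr6:98359724-98359748, with the core in capitals and 10 bases on either side.
Hif1a, first: acagacgagcACGTGagctgggcag
Hif1a, second: gctgagagcaACGTGggctggggtg
Among the HIF target genes of the list below, 21 of 34 promoters (61.8%) held the same letters.

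Epas1 (chromosome 6, 20299603 to 20377837, Rn5), the HIF-2α gene, had a lowest, median, and highest value of 21.3, 24.6, and 27.04 FPKM in Ad-GFP samples and of 21.3, 26.5, and 31.7 FPKM in Ad-h-NR4A2 samples. It was higher in 4 of 6 pairs, and the values overlapped. In the unpaired fit the log2 fold change was 0.10 (SE 0.10, 95% CI -0.12 to 0.32, limma, Benjamini-Hochberg adjusted p = 0.473), and 0.136 was the adjusted p with the replicate block.

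Partners of VEGF and angiopoietin signaling were described from a list of 23 genes, of which 20 were in the tables. Of 19 partner genes tested, 1 rose and 4 fell (26.3% called, compared with 15.2% of all genes), and the list's median log2 fold change was -0.24. The list was chosen with earlier results of these data known, so that this share is a description and not a test. Nrp1, the neuropilin co-receptor that presents VEGF to Kdr, fell from 31.4 ± 5.55 to 12.5 ± 2.07 FPKM (SD, n = 6), with a lowest Ad-GFP value of 24.2 and a highest Ad-h-NR4A2 value of 16.4. Its log2 fold change was -1.31 (SE 0.12, limma, Benjamini-Hochberg adjusted p = 2.04e-06). At 31.4 FPKM, Nrp1 stood above Kdr and Flt1 in Ad-GFP samples.

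Angptl4, a secreted inhibitor of lipoprotein lipase that is also a HIF and PPAR target, rose from 4.61 ± 3.22 to 57.1 ± 26.5 FPKM, or by 3.64 on the log2 scale (SE 0.38, limma, Benjamini-Hochberg adjusted p = 5.58e-06). Its Ad-GFP values were 2.72 to 11.1 FPKM and its Ad-h-NR4A2 values 19.9 to 99.9 FPKM, without overlap. The ligand gene Figf (Vegfd), which acts on Flt4 and in some species Kdr, fell from 1.17 ± 0.270 to 0.536 ± 0.165 FPKM (log2 fold change -1.003, adjusted p = 0.00117). Vash2, a vasohibin, went from 1.93 ± 0.278 to 0.897 ± 0.138 FPKM (log2 fold change -1.02). Angptl2, a secreted angiopoietin-like protein, went from 0.636 ± 0.235 to 0.244 ± 0.0624 FPKM (log2 fold change -1.06). Figf and Angptl2 were thus low. With a mean FPKM of at least 1 required, neither was tested and 2 partners were called lower. The angiopoietin receptors were not called, with log2 fold changes of -0.01 for Tek (adjusted p = 0.966) and -0.03 for Tie1 (adjusted p = 0.952), and neither was Flt4 (-0.26, adjusted p = 0.554).

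Of the 8 genes tested of HIF partners and oxygen sensing, 1 fell and none rose (12.5% called, beside 15.2% of all genes). On the adjusted p alone 3 of the 8 passed, beside 40.9% of all genes, so that neither share stood above the background. Arnt2, a brain-rich relative of Arnt, fell from 0.203 ± 0.129 to 0.0565 ± 0.0163 FPKM (log2 fold change -0.86, limma, Benjamini-Hochberg adjusted p = 0.00787). These values are low beside the pseudocount of 0.1 FPKM. The groups of Arnt2 overlapped, with a lowest Ad-GFP value of 0.0673 and a highest Ad-h-NR4A2 value of 0.0790 FPKM. Arnt, the partner of both HIF subunits, went from 15.9 ± 1.07 to 13.1 ± 0.904 FPKM without overlap (log2 fold change -0.28, adjusted p = 0.00211), under the limit of 1.5. Egln3, an oxygen-sensing prolyl hydroxylase and itself a HIF target, went from 52.9 ± 3.00 to 43.3 ± 4.84 FPKM (log2 fold change -0.30, adjusted p = 0.00388). Vhl, which marks HIF subunits for degradation, had a log2 fold change of 0.11 (adjusted p = 0.292). Hif3a was listed at 0 in all samples.

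The HIF target genes were called in opposite directions. Of 35 tested, 4 rose and 8 fell (34.3% called, beside 15.2% of all genes, of which 7.94% higher and 7.24% lower), and the median log2 fold change was -0.14. With the transcripts of each gene summed, 7 fell. This list too was chosen with earlier results of these data known, so that its share is a description and not a test. Slc16a3, the lactate exporter MCT4, rose most, from 0.821 ± 0.222 to 18.2 ± 4.66 FPKM (SD, n = 6), or by 4.31 on the log2 scale (SE 0.18, limma, Benjamini-Hochberg adjusted p = 1.50e-09). Ndrg1 rose from 5.08 ± 2.36 to 77.8 ± 23.9 FPKM (log2 fold change 3.96) and Ankrd37 from 1.305 ± 0.359 to 9.20 ± 1.99 FPKM (2.74). Hk2, a hexokinase and the fourth target called higher, rose from 37.7 ± 5.83 to 67.5 ± 10.7 FPKM (0.84). In these 4 genes all Ad-h-NR4A2 values exceeded all Ad-GFP values.

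Hmox1, the heme-degrading enzyme heme oxygenase 1, fell from 309.5 ± 57.0 to 111 ± 27.5 FPKM (log2 fold change -1.49, limma, Benjamini-Hochberg adjusted p = 7.24e-06). Adm, which encodes the vasodilator adrenomedullin, fell from 22.3 ± 3.84 to 9.58 ± 2.69 FPKM (-1.24). Hk1, another hexokinase, fell from 113 ± 10.4 to 53.7 ± 6.60 FPKM (-1.08), and Pfkfb3, an activator of glycolysis, from 4.10 ± 0.826 to 1.93 ± 0.488 FPKM (-1.05). The glycolytic enzyme Aldoa was called lower by its most abundant transcript (log2 fold change -1.06), but summed over its 3 transcripts it went from 2630 ± 137 to 3767 ± 324 FPKM, so that its direction turned. Slc2a1, the glucose transporter GLUT1, had a log2 fold change of -0.04 (adjusted p = 0.888) and Pdk1, which restrains pyruvate oxidation, one of 0.01 (adjusted p = 0.959).

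**Figure D5:**
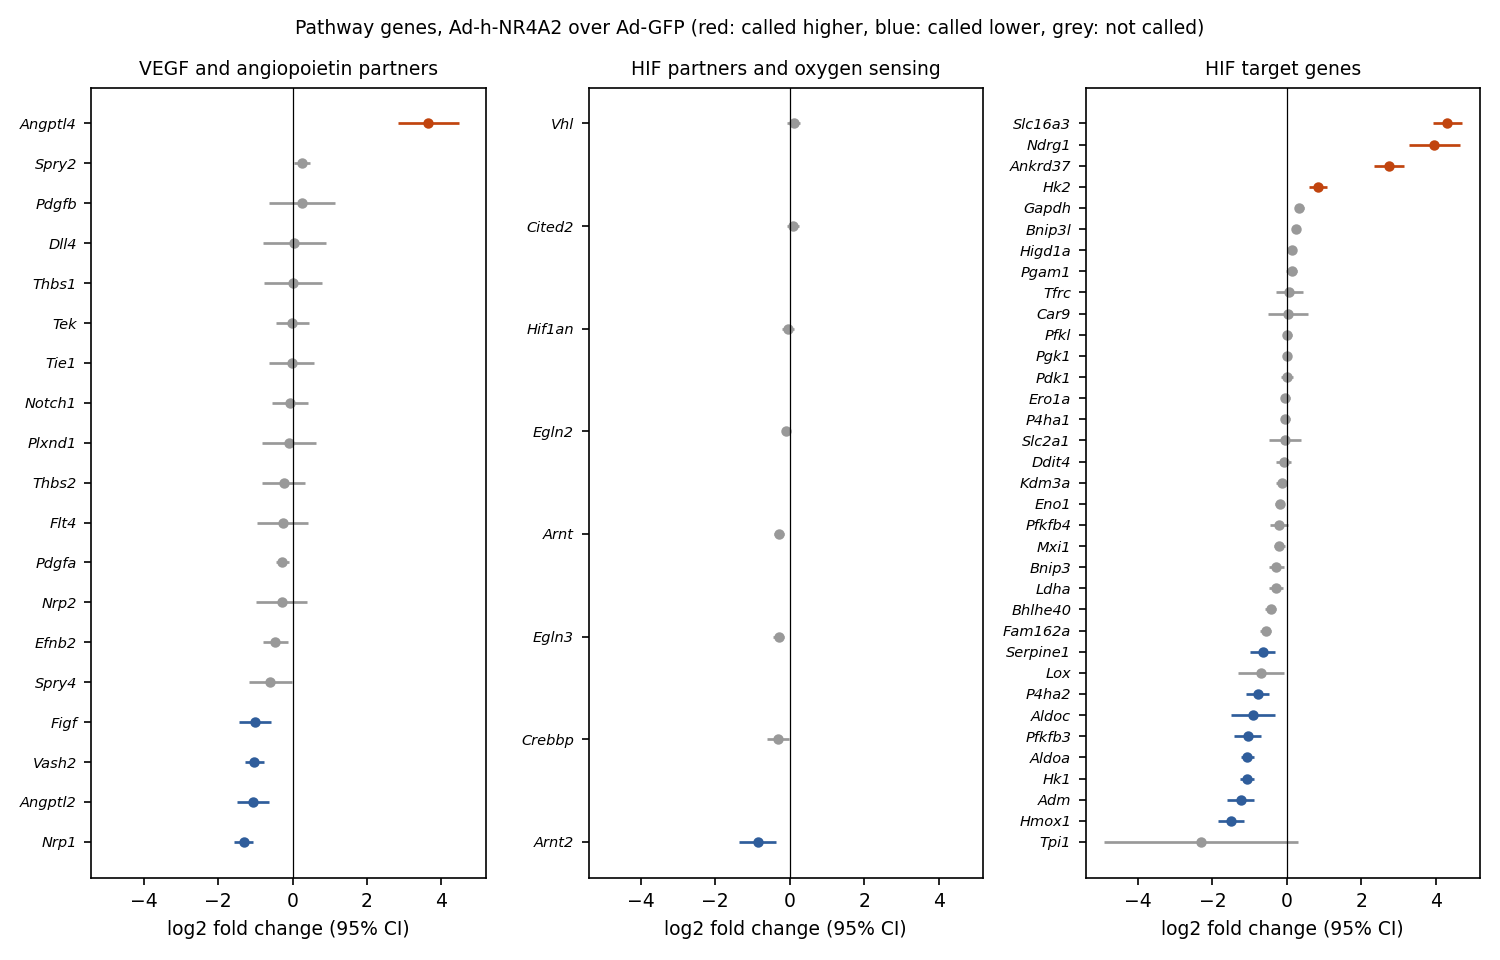
Log2 fold change of FPKM + 0.1 (Ad-h-NR4A2 over Ad-GFP) with 95% confidence intervals for the tested genes of the 3 lists, ordered by value (red called higher, blue called lower, grey not called). Slc16a3, Ndrg1, Ankrd37, and Angptl4 lie at 2.74 to 4.31, and Vhl, at 0.11, is the highest of the oxygen-sensing genes; Aldoa is shown by its most abundant transcript.

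As a description of likeness, each gene tested was correlated over the 12 samples with Vegfa and with Angpt2 on the log2(FPKM + 0.1) scale. The 3 most like Vegfa were Scarf1 (Pearson's r = 0.911), Rab29 (0.911), and Emc9 (0.891). The 3 most like Angpt2 were Ehd2 (r = 0.932), Tmem14c (0.890), and Uhrf1 (0.888). Samples of the same number and of the same group share sources of variation, so that these values carry no test.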

How the data were processed

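RNA sequencing covered 12 ARVM samples, 6 per group. As described in the paper, the authors used a stranded library kit, aligned reads to Rn5 with STAR, and quantified RefSeq transcripts with a Cufflinks workflow (2.1.0); the deposited values are FPKM, and replicates were not pooled. The confidence limits in the tables, also in FPKM, equal the value itself in all but 8 cases, as deposited by the authors, and were not used. Start positions count from 0 in the tables and are given here from 1. Groups and sample numbers come from the labels.

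The transcript of highest mean FPKM stood for its gene name, since fragments are divided among transcripts. Genes above 0 in all 12 samples (10950) were fitted with limma 3.58.1 in R 4.3.3 on log2(FPKM + 0.1), with eBayes and trend, two-sided, with Benjamini-Hochberg adjustment over all genes. The pseudocount understates changes of low genes. The reported fit is unpaired, after the paper. The block was used because same-numbered samples deviated together from their group means (correlation across genes 0.347 to 0.623 in the 6 pairs, mean 0.505), and the paper describes 6 experiments with cells of different rats. Single values were compared by exact permutation over all 924 splits and by sign flips of the 6 paired differences. Tested on simulated data of 10950 genes, the fit called 191 of 200 genes changed by a log2 of 1.5 with the right sign, along with 2 unchanged genes. At a log2 change of 1 it called 178 of 200, along with 7 unchanged genes. The simulated noise was independent between samples and between genes, and the changed genes were drawn from all levels. These rates therefore do not cover low genes in particular, or the shared deviations of same-numbered samples. Tables, exact tests, and plots were made in Python 3.11.15 with SciPy 1.17.1, NumPy 2.4.6, pandas 2.3.3, and Matplotlib 3.10.9.

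Fragments per sample were recovered because FPKM times transcript length (less a fitted 148 to 162 nucleotides) rises in whole steps. Of values up to 6 fragments in transcripts of at least 800 nucleotides, 99.2% to 99.9% per sample came out whole within 0.05. Fragment numbers cover counting error only and are given for genes with a single listed transcript.

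Named were the 10 genes with their transcripts, Nr4a2, up to 8 called genes per pathway list with the largest changes, cell markers, and the 3 genes most like Vegfa and Angpt2. Hk2 and the list genes named without a call were picked after their values were seen. The 10 genes and the lists were chosen with earlier results of these data known. Not in the tables used here were Ptprb, Vash1, Ephb4, Egln1, Ep300, Mmrn2, and Ttn. Alternatives were other pseudocounts (1 and 0.01), filters, scalings, summed transcripts, the block, fold-change limits, and each sample left out.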

Additional observations from a re-analysis of the deposited data

Results flagged for a closer look

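In 84 groups of 6 samples, 5 values stood apart from the rest of the group, judged by Dixon's gap at the 95% level, where chance marks about 1 group in 20. Summed Vegfa was 200.31 FPKM in Ad-GFP sample 28, compared with a median of 244.86 in the other 5. In the same sample, Angpt2 over the endothelial markers was 0.0932 (median of the others 0.0351). In Ad-h-NR4A2 sample 24, Kdr over the endothelial markers was 0.1285 (median of the others 0.0993), and in Ad-h-NR4A2 sample 28 the share of NM_031836 was 40.2% (median of the others 44.7%). Angptl4 was 11.1 FPKM in Ad-GFP sample 29 (median of the others 3.135).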

How the results depend on the processing

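Angpt2 was called lower under every alternative in which it was tested. With each sample left out its log2 fold change was -1.25 to -0.81 (limma adjusted p 0.00664 to 0.0406), and with a pseudocount of 1, which compresses low values, it was -0.48 (adjusted p 0.011). With each sample left out 1 of the 10 genes was called each time and 1542 to 1770 of all genes were called. Requiring a mean FPKM of at least 1 dropped Angpt2, so that 0 of the 10 genes were called (0 lower) and 0 had an adjusted p below 0.05, with 2 VEGF and angiopoietin partners and 0 HIF partners lower. With the replicate block, 5 of the 10 genes had an adjusted p below 0.05, compared with 1 to 2 when single samples were left out of the unpaired fit (2 without Ad-h-NR4A2 sample 25 or 28). The block changed no call among the 10 genes, Angpt2 alone being called with and without it. With a fold-change limit of 2, 803 genes were called (493 higher, 310 lower), and with none 4484 (2113 higher, 2371 lower), among them 2 VEGF and angiopoietin partners higher, 3 HIF partners lower, and 14 HIF targets lower. The sign of Vegfc (-0.1205 to 0.1309) and of Flt1 (-0.2591 to 0.1469) turned with the sample left out, and neither was ever called. Alternatives chosen after the data were seen left the difference of Kdr over the endothelial markers at -0.56 with the median of the markers, whereas for Flt1 the exact permutation p was above 0.05 in 11 of 14. Depth limits Vegfc, Pgf, and Angpt2 most.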
